A study of Homo sapiens with 2 samples.

Results

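CA9, SLC2A1, HK2, PFKFB3, PGK1, LDHA, PDK1, BNIP3, VEGFA and NDRG1 are 10 genes that cells use in low oxygen or in glycolysis, and their mRNA was followed here in a colon cancer line with and without extra HOXA5 short RNA. The 10 genes were listed by name and no measured value entered that rule, but the list was made with earlier results of these data known. They stand among 21614 genes named on the array. Every non-control probe whose RefSeq accession belonged to one of them was taken, which gave 14 probes in 23 spots. CA9 was not well above background on either array, and 9 of the 10 genes could be compared, out of 11994 genes compared in all. None of the 9 genes differed by 1.5-fold or more between the arrays. The differences ran from 1.43-fold higher with HOXA5 short RNA for PDK1 to a ratio of 0.891 for PFKFB3. All 9 lay within 2 SD of the measurement around no difference, by an SD that kept outlier spots in. The share of all genes that lay within 2 SD was not counted, so this is no trait of the 9.

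The cells were HCT116, an established line from a human colon carcinoma. Those of the mock group carried an empty pEB vector, and those of the HOXA5 short group carried the same vector with HOXA5 short RNA, a transcript that lacks the first exon of HOXA5. Both groups had been transfected and kept under blasticidin for 2 weeks, and the sources used here do not say whether the resistant cells were pooled or were 1 clone. No low-oxygen treatment is described for either group. Total RNA (400 ng) was labeled with Cy3 and hybridized to 1-color human arrays, with 1 array in each group. There were no replicates, so no difference between the groups was tested, and an SD given below covers the measurement on the array and holds no spread between cultures.

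When oxygen is plentiful, prolyl hydroxylases mark the alpha subunits of hypoxia-inducible factor (HIF), and the VHL ubiquitin ligase has them destroyed. When oxygen is scarce, the alpha subunit escapes, pairs with ARNT and binds short DNA elements in genes for glucose uptake, glycolysis, acid export, blood vessel growth and mitochondrial restraint. Many carcinoma cells run the same glycolytic program with oxygen present, and colon tumors are a familiar case.

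The letters at the center of the HIF element, ACGTG or GCGTG, were looked for on both strands of the 300-base windows that RefSeq gives around gene starts (GRCh38.p14, 250 bases before to 50 after the start). Windows were found for 8 of the 10 genes, 12 windows in all. VEGFA and NDRG1 had no entry. ACGTG was in 8 of the 12 windows, against 21.4% of 35116 windows of all genes, and GCGTG was in 8 of the 12, against 36.5%. At least 1 of both was in 11 of the 12 windows and in 48.5% of all windows. SLC2A1 held GCGTG only. For the other 7 genes, 1 stretch of 30 bases each is shown to let the shared letters be compared across genes, since all 7 are textbook HIF targets. Capitals mark 1 match in each stretch: ACGTG, its reverse complement CACGT, or CACGTG, which reads as ACGTG on both strands and was counted there for each strand. Further matches stay in small letters. The PDK1 stretch holds another CACGT, 8 bases before the start. The HK2 and PGK1 stretches hold GCGTG, and the BNIP3 stretch holds its reverse complement CACGC. Each stretch is written 5′ to 3′ on the strand of the gene. A match in these letters is a description and no measure of binding.
CA9, 18 bases before the start, chr9:35673897-35673926 (+): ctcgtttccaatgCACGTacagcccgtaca
HK2, 48 bases before, chr2:74834066-74834095 (+): caatgggcgtgcgCACGTcactgatccgga
PFKFB3, 108 bases before, chr10:6202812-6202841 (+): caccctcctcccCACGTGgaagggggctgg
PGK1, 202 bases before, chrX:78104033-78104062 (+): cgcggcgtgccggACGTGacaaacggaagc
LDHA, 87 bases before, chr11:18394464-18394493 (+): cagcccgactcaCACGTGggttcccgcacg
PDK1, 17 bases before, chr2:172556060-172556089 (+): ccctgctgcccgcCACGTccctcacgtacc
BNIP3, 134 bases before, chr10:131982040-131982069 (-): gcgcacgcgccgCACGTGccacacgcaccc

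The values are processed signals, the brightness of a spot after background correction, in the linear intensity units of the scanner software, and the figure after ± is the error that software gives for the spot. The HOXA5 short array had a 75th percentile over probes of 44.0, against 35.6 for the mock array. A log2 difference is therefore given after each array was scaled to that percentile (a shift of 0.30). Not every probe was brighter there, as PDP1 read 6410 in mock and 5138 in HOXA5 short cells before scaling. A probe counted as detected when it was well above background, which held for 36.4% of probes in mock and 37.5% in HOXA5 short cells, and no spot was saturated. The lowest detected signal was 7.74 for the mock and 8.44 for the HOXA5 short array. The probe for HOXA5 read 39.4 ± 4.32 in mock cells and 346 ± 34.6 in HOXA5 short cells, a difference of 2.83 (7.11-fold), which goes the way of the labels. Whether this probe tells HOXA5 mRNA from HOXA5 short RNA was not tested. By qPCR, the paper reported more HOXA5 short RNA and unchanged coding HOXA5 mRNA in the stably transfected cells. Of 6 colon epithelial markers, EPCAM, KRT8, KRT18, KRT19 and CDH1 were detected on both arrays and VIL1 on neither. Of 6 markers of blood, vessel and connective tissue cells, CD68 was detected on both arrays and the other 5 on neither. The 7 RNA spike-ins detected on both arrays had a median difference of -0.46 after scaling, so differences of all genes rise by that amount if the spike-ins are taken as equal. The arrays measured RNA of whole cultures, where more cells with an mRNA and more of that mRNA per cell cannot be told apart.

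The measurement SD came from 593 probes printed in several spots. For a single spot the SD of the log2 difference was 0.26 over all signals, with 0.29 for signals from 15 to 50 and 0.23 for signals above 1000. Over the 17938 probes compared, the differences themselves had an SD of 0.33. For the 9 genes, 0 were 2-fold apart, beside 108 of 11994 genes in all (0.900%). At 1.5-fold the count was also 0 of 9, beside 4.38% of all genes, a share close to that of all genes. Of the 9 genes, 7 were higher on the HOXA5 short array, beside 45.5% of all genes, and the sign of 4 of the 9 turned with some way of processing (given at the end). Their median difference was 0.13, against -0.02 over all genes compared, where the SD over genes was 0.29 and the 5th and 95th percentiles were -0.40 and 0.45. PDK1 lay above the 95th percentile and the other 8 genes lay between the percentiles. None of the 14 probes lay in an uneven zone of the array, where at least 10% of neighboring spots were 2-fold apart in either direction. That rule does not see smaller shifts shared by neighbors.

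**Figure D1:**
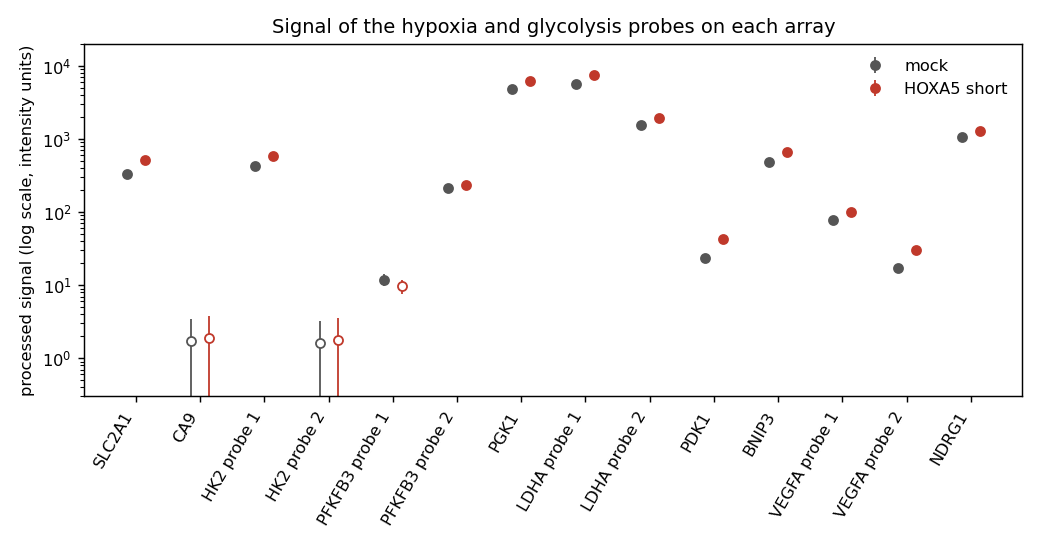
Processed signal (intensity units, log axis) of each of the 14 probes on the mock array (grey) and the HOXA5 short array (red), before scaling. Bars are the scanner's error of the spot (for PGK1, the mean over its spots), and open points were not well above background, as for CA9 on both arrays.

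The entry of glucose was represented by SLC2A1, which codes for the glucose transporter GLUT1 and is induced by HIF. SLC2A1 read 330 ± 33.0 in mock cells and 516 ± 51.7 in HOXA5 short cells. The unscaled signals did not overlap within the scanner's errors, and HOXA5 short cells had the higher. The same held for the compared probes of HK2, PGK1, LDHA, PDK1, BNIP3 and VEGFA. The 75th percentile of the HOXA5 short array was 1.235-fold that of the mock array. After scaling, the difference was 0.34 (1.27-fold, range 0.915 to 1.76 at 2 SD of the measurement). This was the largest difference among the 9 genes after PDK1, and 7.68% of all genes had a higher one. Among 4025 probes of like signal, 9.76% were at least as far from 0. The SD behind the range was 0.24, with outlier spots kept in, and the width of the range depends on that choice. Without outlier spots, copies of list genes of like signal had smaller SDs. These were 0.13 for CDH1, 0.14 for ERO1A, 0.10 for MPC1 and 0.09 for MPC2. An SD without outlier spots was not computed for the whole signal class.

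CA9 codes for carbonic anhydrase IX, a surface enzyme that helps cells shed acid, and its mRNA is widely used as a marker of hypoxia. Its probe read 1.72 ± 1.73 in mock cells and 1.89 ± 1.88 in HOXA5 short cells. Both signals were no larger than about their own error and lay below the lowest detected signal, so no fold is given. CA9 mRNA was therefore not detectable with this probe on either array.

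In glycolysis itself, HK2, the hexokinase that traps glucose in many tumors, read 433 ± 43.3 in mock cells and 584 ± 58.4 in HOXA5 short cells. The difference after scaling was 0.13, which is 0.54 of the measurement SD. Another HK2 probe read 1.63 and 1.78 and was detected on neither array, so only the first entered the gene's value.

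PFKFB3 makes fructose-2,6-bisphosphate, the strongest activator of phosphofructokinase. Its brighter probe read 211 ± 21.2 in mock cells and 232 ± 23.3 in HOXA5 short cells, which overlap within their errors. After scaling the difference was -0.17, the lowest of the 9 genes, at -0.71 of the measurement SD. Its dimmer probe read 11.9 ± 2.26 on the mock array, where it was detected, and 9.71 ± 2.24 with HOXA5 short RNA, where it was not. The unscaled signals lay within their errors. After scaling, the mock reading was 1.52-fold the other, which is within 2 SD of the measurement at such dim signals (SD 0.31 on the log2 scale), so that probe sets no firm limit.

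PGK1, the enzyme that makes the first ATP of the pay-off phase of glycolysis, was the best measured of the genes because its probe was printed in 10 spots. Over the 10 spots the unscaled signal was 4904 ± 303 (SD) in mock cells, from 4359 to 5475, and 6164 ± 201 in HOXA5 short cells, from 5824 to 6511. The unscaled signals did not overlap, and the 75th percentile of the HOXA5 short array was 1.235-fold that of the mock array. After scaling, the mean difference over the 8 copies used was 0.02 ± 0.11 (SD over copies), from -0.14 to 0.18, with 5 of the 8 above 0. On the HOXA5 short array 2 copies were outliers by the scanner software and were left out, and with them the mean was 0.03 ± 0.09 over 10 copies. At 2 SD of the measurement the fold ran from 0.909 to 1.13, the narrowest range of the 9 genes. That SD, 0.08 for the mean of the copies, came from probes of like signal. The standard error from the 8 copies of PGK1 themselves was smaller, 0.04.

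**Figure D2:**
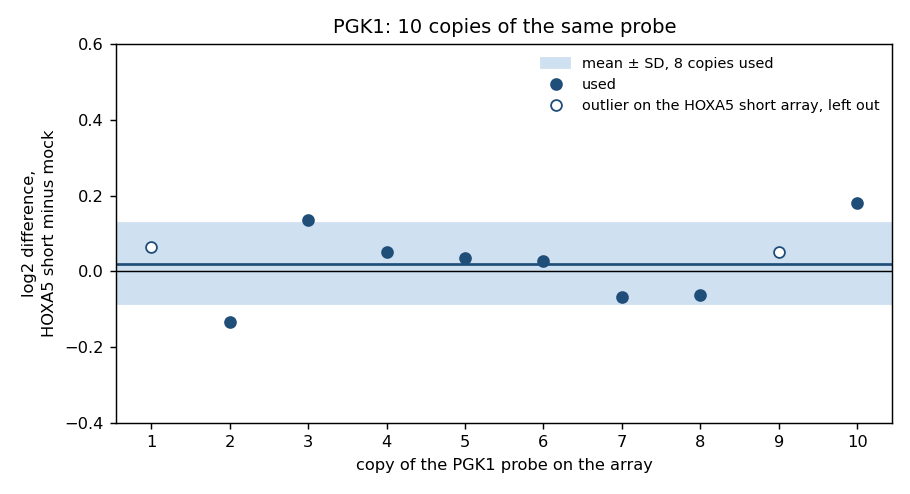
Log2 difference, HOXA5 short minus mock, of each of the 10 copies of the PGK1 probe after scaling, with the mean ± SD of the 8 copies used as line and band. The copies lie on both sides of 0, from -0.14 to 0.18.

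LDHA codes for the A subunit of lactate dehydrogenase, which turns pyruvate into lactate and regenerates NAD+. Its brighter probe read 5711 ± 571 in mock cells and 7531 ± 753 in HOXA5 short cells, a difference of 0.10 after scaling. Its dimmer probe read 1557 ± 156 and 1947 ± 195, a difference of 0.02. The probes thus differed by 0.08, while the median gap over 2208 genes with 2 compared probes was 0.21. The value of the gene was 0.06 (1.04-fold), at 0.35 of the measurement SD. The arrays' files hold no probe sequences, so how far near-identical copies of PGK1 and LDHA, both known to have many pseudogenes, share these signals was not tested.

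PDK1 and BNIP3 act on the mitochondrion. PDK1, pyruvate dehydrogenase kinase 1, switches off the enzyme that feeds pyruvate to the citric acid cycle. It read 23.9 ± 3.0 in mock cells and 42.3 ± 4.68 in HOXA5 short cells. These unscaled signals do not overlap within their errors, as for SLC2A1 and most of the 9 genes. The difference after scaling was 0.52 (1.43-fold), the highest of the 9 genes, and 3.49% of all genes were higher. It was 1.77 times the measurement SD, with a range of 0.955 to 2.15 at 2 SD that includes no difference. Of 4754 probes of like signal, 13.2% were at least as far from 0. The difference was 0.56 after subtracting the median of the 33 spots around it, and 1 of those neighbors was itself 2-fold apart. It depended on the background correction: with normexp, which adds an offset and so draws dim signals together, it was 0.11.

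BNIP3, a mitochondrial outer membrane protein that marks mitochondria for removal, read 492 ± 49.2 in mock cells and 672 ± 67.2 in HOXA5 short cells. After scaling the difference was 0.15 (1.11-fold), which is 0.61 of the measurement SD. In its signal class 40.7% of probes were at least as far from 0.

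Of the genes that act on other cells or on growth, VEGFA codes for the main growth factor of blood vessels and had 2 probes, both listed with accessions of its transcript variants. The brighter (NM_001025370) read 79.2 ± 8.14 in mock cells and 102 ± 10.4 in HOXA5 short cells, a difference of 0.06 after scaling. The dimmer (NM_001025366) read 17.0 ± 2.40 and 30.2 ± 3.54, a difference of 0.53. The gap of 0.47 between the probes was matched or passed by 19.5% of genes with 2 compared probes, so the gene's value of 0.29 (1.22-fold) is the mean of 2 unlike readings. At the dimmer probe 12.8% of probes of like signal were at least as far from 0, and at the brighter 79%. Taking the brighter probe alone, VEGFA stood at 0.06, and with normexp the gene's value was also 0.06.

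NDRG1, a stress-induced protein linked to differentiation and restraint of spread in colon cells, read 1078 ± 108 in mock cells and 1277 ± 128 in HOXA5 short cells. After scaling the difference was -0.06 (ratio 0.959), at -0.27 of the measurement SD. With PFKFB3 it was 1 of the 2 genes on the lower side, and its sign turned with scaling to the array median, scaling to the spike-ins or normexp.

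**Figure D3:**
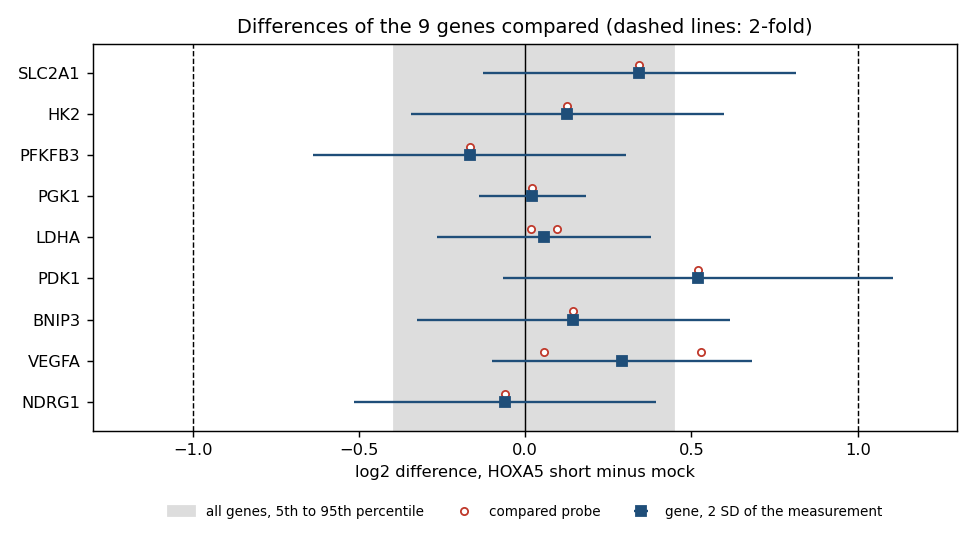
Log2 difference, HOXA5 short minus mock, of the 9 compared genes (squares; bars are 2 SD of the measurement) and of each compared probe (open circles), beside the 5th to 95th percentile of all genes (grey). Every bar crosses 0, and the VEGFA probes lie 0.47 apart.

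By role, the 4 glycolytic genes HK2, PFKFB3, PGK1 and LDHA lay between -0.17 and 0.13. SLC2A1, which admits glucose, stood at 0.34, and the mitochondrial genes BNIP3 and PDK1 at 0.15 and 0.52. With normexp PDK1 (0.11) lay below HK2 (0.25), PGK1 (0.22) and LDHA (0.17), so the order of the roles depended on the processing. No gene in these roles left the range of 2 measurement SD, a range for which the share of all genes was not counted. No gap between roles was tested. The dim probes of PDK1 and VEGFA had differences of 0.52 and 0.53, and among the probes of the 9 genes none with a mock signal above 50 exceeded the 0.34 of SLC2A1.

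The rest of the pathway was read from 8 lists with 120 genes in all, of which 87 could be compared. Their median difference was -0.005, with 42 higher and 45 lower, beside 45.5% higher among all genes. None was 2-fold apart (0.900% of all genes), and 3 of the 87 were 1.5-fold apart (4.38% of all genes), a share no larger than that of all genes. Of 27 other glycolytic genes, 19 were compared, with a median of 0.02 and 13 higher. The ends of that list were BPGM, which makes 2,3-bisphosphoglycerate, at 0.20 and TIGAR, which lowers fructose-2,6-bisphosphate, at -0.37. GAPDH, printed in several spots, read 20060 in mock cells and 25520 in HOXA5 short cells, or 0.04 ± 0.13 over 9 copies. ALDOA had no probe matched here, and PGK2 and LDHC, forms of the testis, were detected on neither array.

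Of 18 genes for glucose, lactate and proton transport, 10 were compared, with a median of -0.06. Of the 10, 3 were higher, beside 45.5% of all genes. The median turned to 0.04 with scaling to the array median and 0.02 with normexp. The lowest was the intracellular glucose transporter SLC2A8 at -0.48. SLC2A3, which codes for the glucose transporter GLUT3, was detected on neither array. The difference of SLC2A1 was higher than that of each of these 10 genes.

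Of 17 genes of oxygen sensing and the HIF complex, 13 were compared, with a median of 0.07. Of the 13, 9 were higher, beside 45.5% of all genes. HIF1A, the oxygen-regulated subunit, was the lowest of the 13 at -0.19, from probes at -0.24 and -0.15. The brighter probe was printed in 10 spots and read 159 and 166, and of the 9 copies free of outliers on both arrays 8 were lower, at -0.26 ± 0.18. EPAS1, the other main alpha subunit, was at 0.07, VHL at -0.09 and the prolyl hydroxylase EGLN1 at -0.08. ARNT read 6.0 in mock cells and 5.8 in HOXA5 short cells and was detected on neither array. CUL2, the scaffold of the VHL ligase, read 12.4 in mock cells and 28.3 in HOXA5 short cells, a difference of 0.88. Its signal was dim, and with normexp the difference was 0.14.

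Of 28 other HIF targets, 20 were compared, with a median of -0.09 and 5 higher against 15 lower, beside 45.5% higher among all genes. That median was not on the lower side throughout: it was 0.0068 with scaling to the array median, 0.0044 with normexp and 0.0035 after subtracting the local median. INSIG2, which holds back cholesterol synthesis, was at 0.29, but its probes gave 0.01 and 0.57. The collagen-modifying enzyme PLOD2 was at -0.44. ADM, the vessel-dilating peptide adrenomedullin, read 1243 and 1350 and was lower in all 10 copies of its probe, at -0.18 ± 0.11. The transferrin receptor TFRC read 1886 and 2178 and was lower in all 10 copies, at -0.10 ± 0.07. DDIT4, an inhibitor of mTORC1, was at 0.05 ± 0.09 and the oxidase ERO1A at -0.09 ± 0.14, each over 10 copies. Copies of a probe on 1 array pair measure the RNA of the same cultures, so these SDs are of the measurement. LOX, EGLN3 and CA12 were detected on neither array. STC2 was detected on the HOXA5 short array alone, at 9.08 against 7.40, with no fold that its limit allows.

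Of 13 genes for the entry of pyruvate into mitochondria, 12 were compared, with a median of -0.11. Of the 12, 3 were higher and 9 lower, beside 45.5% higher among all genes. Here too the median turned with normexp (0.03), and it shrank to -0.01 with scaling to the array median and -0.05 after subtracting the local median. PDK1, which acts on the same step, was not on that list. PDHB, a subunit of pyruvate dehydrogenase itself, was at 0.46. PDP1, the phosphatase that undoes the mark set by PDK1, was the lowest at -0.62, from 6410 on the mock array to 5138 on the HOXA5 short array. The 21 spots around it had a median of -0.29, and after subtracting the local median PDP1 was at -0.33, below the 1.5-fold threshold. The carrier subunits MPC1 and MPC2 were lower in all copies used, at -0.19 ± 0.10 over 9 and -0.14 ± 0.09 over 7. PDK4 was detected on neither array.

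Of 11 mitophagy genes beside BNIP3, 10 were compared, with a median of 0.06 and 7 higher, beside 45.5% of all genes. Its close relative BNIP3L was at -0.30, from probes at -0.19 and -0.42, opposite in sign to BNIP3 except with scaling to the spike-ins. CALCOCO2, an autophagy receptor, was the highest at 0.62, from 22.8 to 43.3, and at 0.14 with normexp. Of 9 VEGF family members and receptors, 3 were compared: PGF, placental growth factor, was the highest at 0.45, and the co-receptor NRP1 the lowest at -0.48, while VEGFC, KDR and FLT1 were detected on neither array. The other NDRG genes had a median of 0.02, from NDRG4 at -0.11 to NDRG3 at 0.15.

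**Figure D4:**
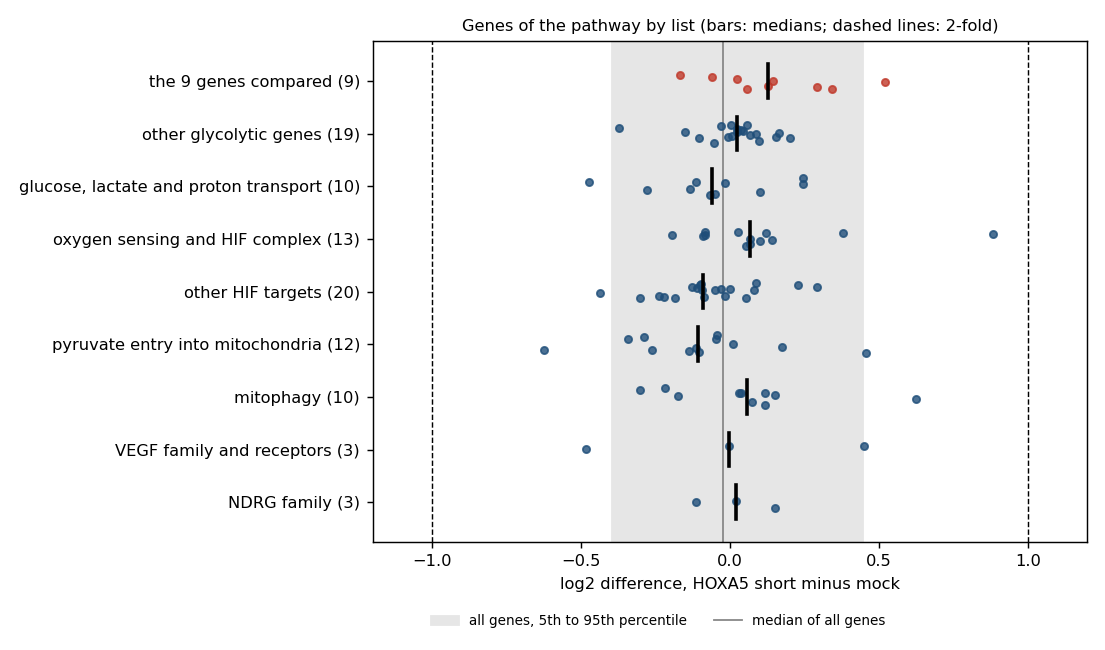
Log2 difference, HOXA5 short minus mock, of each compared gene (points), grouped by list with the number of genes in brackets; black bars are medians, and the grey band and line are the 5th to 95th percentile and the median of all genes. No point passes 2-fold, and CUL2 (0.88), CALCOCO2 (0.62) and PDP1 (-0.62) pass 1.5-fold.

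Across 12 other ways of processing the arrays, no gene of the 9 reached 2-fold, while PDK1 passed 1.5-fold with scaling to the array median (0.62). With scaling to the spike-ins all 9 genes were higher, with a median of 0.58, and 4 passed 1.5-fold, PDK1 being the highest at 0.98. That scaling moves the median of all genes by 0.46, and relative to the median of all genes the 9 stood 0.15 higher before and after. Over all 12 alternatives this relative median stayed between 0.08 and 0.16. BNIP3, LDHA, PDK1, SLC2A1 and VEGFA were on the higher side in every alternative that gave them a value. HK2 turned sign with no filter on dim probes (-0.02), PGK1 with quantile normalization (-0.03) and PFKFB3 with scaling to the spike-ins (0.29). Of the pathway genes below 0, HIF1A, ADM, PLOD2, TIGAR, BNIP3L, NDRG4, ERO1A, TFRC, MPC1 and MPC2 were above 0 with scaling to the spike-ins, and ERO1A, TFRC and MPC2 also with normexp. ERO1A and TFRC were above 0 with scaling to the array median as well, while PDP1, NRP1 and SLC2A8 stayed below 0 throughout.

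**Figure D5:**
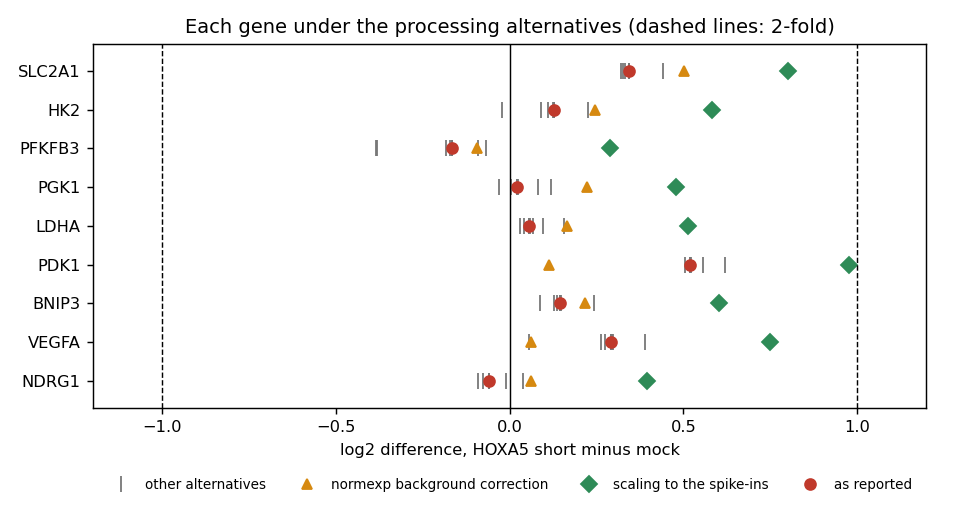
Log2 difference, HOXA5 short minus mock, of each of the 9 genes as reported (red) and under the alternatives, with normexp (orange) and scaling to the spike-ins (green) set apart. Scaling to the spike-ins moves every gene up by 0.46, and normexp lowers PDK1 to 0.11 and VEGFA to 0.06.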

How the data were processed

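The authors deposited the scanner output of 2 arrays, 1 for each group, both on the same slide and scanned together. Per the file headers, Agilent Feature Extraction 11.5.1.1 gave each of 62976 spots an intensity on a linear scale after background correction (the processed signal), with an error, and the annotation used hg19. A second file from the authors holds log2 values, whose columns are mirror images with medians of 0.005672 and -0.005672, so each probe was centered on its mean. The difference between its columns followed the scanner values scaled as below, with an offset of 0.0014 (the same within 0.001 for 100% of 17938 probes). How the authors' values were scaled is not given in the sources used here.

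The log2 processed signal was averaged over the spots of a probe without outlier spots, and the 75th percentile of 50599 non-control probes was subtracted on each array. Probes well above background on both arrays were compared (17938), and a gene was the mean of its probes. Accessions were matched without versions to RefSeq genes of GRCh38.p14, which named 59.3% of probes. A probe detected on 1 array was given a bound, its value on that array over whichever was higher on the other, its own or the lowest detected signal. A measurement SD was taken within each class of signal (limits 15, 50, 200 and 1000) from probes with at least 5 detected spots, outliers included.

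The 10 genes, the 8 lists and the choices were made with earlier results of these data known. The genes named are the 10 genes, HOXA5, the highest and lowest gene of each list (1 of them is not reported here) and any gene at 2-fold. Others in the text (such as ADM, TFRC, EPAS1 and genes not detected) were chosen after their values were seen. The code was tested on simulated data. Python 3.11.15, numpy 2.4.6, pandas 2.3.3, matplotlib 3.10.9, R 4.3.3 and limma 3.58.1 (normexp, offset 50) were used. Alternatives were other scalings, quantile normalization, normexp, the deposited log2 table, other filters, the brightest probe, spots outside uneven zones and the local median. The study's siRNA arrays were not analysed here.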

Additional observations from a re-analysis of the deposited data

How the results depend on the processing

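Each list median moved by at least 0.26, the SD of a single spot, with 1 alternative, scaling to the spike-ins. There the 9 genes had a median of 0.58, all lists together 0.45, the other glycolytic genes 0.48, transport 0.40, oxygen sensing and the HIF complex 0.52, other HIF targets 0.37, pyruvate entry 0.35, mitophagy 0.51, the VEGF family 0.45 and the NDRG family 0.48. Smaller moves turned the sign of medians near 0, for all lists together with normexp (0.08), scaling to the array median (0.09) and the local median (0.03), and for transport, other HIF targets, pyruvate entry, the VEGF family and the NDRG family in 1 or more alternatives. With the other alternatives the median of the 9 genes lay between 0.04 and 0.23, and 0 of the 9 were 2-fold apart in any. A filter at the median of all probes removed no compared probe. A filter at the median of the compared probes was therefore chosen after seeing the data, and it left 7 of the 9 genes with a median of 0.06. No paired analysis was possible because each group had 1 array.

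The number of arrays limits the precision. A single spot could not resolve differences under about 1.43-fold at 2 SD, and the dim probes of PDK1, VEGFA, PFKFB3, CUL2 and CALCOCO2 were the least certain, while CA9 was below detection. Both arrays shared a slide and a scan, but culture, passage and selection are held by 1 sample each and cannot be told apart from HOXA5 short RNA.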
